A study of Mus musculus with 4 samples.

Results

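The 7SK RNA and the proteins that hold or use the elongation kinase P-TEFb were followed through liver RNA sequencing of acetaminophen-treated mice with and without hepatic Utx. The 9 genes are Rn7sk, Hexim1, Larp7, Mepce, Cdk9, Ccnt1, Ccnt2, Ell2 and Aff4, taken by gene name from a deposited table of 54149 genes. All 9 were found and all 9 passed the filter of a mean of at least 1 FPKM (fragments per kilobase of gene length, scaled for depth) that left 11900 genes. They were chosen by their place in 1 pathway, with the values of the knockout against wild-type comparison already known, so those values are given as a description, with no p of their own; whether a member passed the threshold of the fit over all genes is stated only to count it beside all genes. The mice of both groups were adult females, their background was C57BL/6 x 129S4/SvJae, and they had been fasted for 16 h and injected with 300 mg/kg acetaminophen (APAP), which damages hepatocytes when overdosed. One group was wild-type and the other carried the liver-specific Utx knockout. Each group had 2 libraries, and each library was a pool of liver RNA from 2 mice. Both groups received the drug, so no value shows a response to it. The sources used here do not give the Cre driver, the exact age or the time from injection to collection.

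RNA polymerase II halts shortly after it starts on many genes, and the kinase P-TEFb, made of CDK9 and a cyclin T, releases it by phosphorylating the polymerase and the pausing factors NELF and DSIF. Much of the P-TEFb in a cell is kept inactive in a particle built on 7SK, an abundant small nuclear RNA made by RNA polymerase III: MEPCE caps the RNA, LARP7 binds its end, and HEXIM proteins inhibit the kinase. Stress, growth signals and transcription block can free P-TEFb from the particle, and the super elongation complex, with its AFF4 scaffold and ELL elongation factors, carries it to genes that are switched on fast.

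The 7SK gene, Rn7sk (ENSMUSG00000065037), lies on the minus strand of GRCm38 chromosome 9 from 78175303 to 78175633 and is annotated as a miscellaneous RNA with a single exon of 331 bases. Its first 100 and last 60 bases are shown because they hold the parts that HEXIM and LARP7 are known to contact. Capitals in the first line mark the 3 copies of GATC (GAUC in the RNA), the repeated motif of the HEXIM-binding hairpin, which start at bases 13, 42 and 64. Capitals in the second line mark the thymine-rich end, read as uridines in the RNA, where LARP7 binds. Both stretches come from the GENCODE release M21 transcript on GRCm38 and are written as DNA.
Rn7sk bases 1 to 100, GRCm38 chr9:78175534-78175633, minus strand: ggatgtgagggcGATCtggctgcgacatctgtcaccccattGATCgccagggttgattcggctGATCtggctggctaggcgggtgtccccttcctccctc
Rn7sk bases 272 to 331, GRCm38 chr9:78175303-78175362, minus strand: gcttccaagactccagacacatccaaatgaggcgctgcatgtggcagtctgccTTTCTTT

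Depth was close between libraries, at 16330451 to 17804730 recovered reads each. Kdm6a, the gene of UTX, was at 3.40 and 3.85 FPKM in wild-type livers against 2.20 and 2.12 in knockout livers. Its difference followed the labels, with transcripts still present, but was short of the threshold (limma adjusted p = 0.0715). The label "liver" matched the hepatocyte markers: all 10 were tested, 0 passed, and their summed level was 36891 and 44925 FPKM in wild-type and 41620 and 32114 in knockout pools. Over all 11900 genes, 374 were lower and 190 higher in the knockout at a limma adjusted p under 0.05. Rescaled to each library's listed reads, the split was 255 lower and 211 higher. Nothing in the labels says which mice shared a litter or day, so p-values measure only the spread between these pools.

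7SK RNA was the member with the largest difference. Wild-type pools 1 and 2 held Rn7sk at 129 and 101 FPKM, and knockout pools 1 and 2 at 20.2 and 21.9 FPKM, which rest on 722, 524, 119 and 124 reads. The groups were far apart, with the lower wild-type pool 4.61 times the higher knockout pool, and the knockout pools lay close to each other. The mean was 114.8 ± 20.03 FPKM in wild-type and 21.01 ± 1.19 FPKM in knockout livers (SD over n = 2 pools, as for every ± that follows), 81.7% lower, with a log2 fold change of -2.41 (SE 0.16) on the log2(FPKM + 0.5) scale used throughout. That fold change stood 45th from the lowest among the 11900 tested genes. Over 15 alternative settings, those that leave out 1 library included, it ran from -2.59 to -2.23.

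Among the proteins that build the 7SK particle, differences were small. Hexim1 encodes the inhibitor that silences CDK9 when bound to 7SK and is carried by chromosome 11 (103116231 to 103119725, plus strand). It was at 21.6 and 24.6 FPKM in wild-type and at 17.4 and 19.5 in knockout pools, a mean 20.04% lower with a log2 fold change of -0.31 (SE 0.13). The groups did not overlap, but the nearest pools differed by a factor of only 1.10.

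Larp7, whose protein binds the end of 7SK and keeps the RNA stable, lies on chromosome 3 (127536714 to 127553349, minus strand). It was at 8.85 and 10.4 FPKM in wild-type and at 6.45 and 8.16 in knockout pools (log2 fold change -0.38, SE 0.16). Both knockout pools were below both wild-type pools, but the pools of 1 group lay farther apart than the nearest pools of the 2 groups. Mepce, on chromosome 5 (137781906 to 137787655, minus strand), encodes the enzyme that puts a methyl cap on 7SK. Its levels of 12.7 and 13.1 FPKM in wild-type and 11.6 and 13.3 in knockout pools overlapped, with a log2 fold change of -0.05 (SE 0.12) that was 0.01 after rescaling to the listed reads. Per kilobase, the level of 7SK was 5.98 and 4.10 times that of Hexim1 in wild-type livers and 1.16 and 1.12 times in knockout livers. Those ratios compare levels in poly(A)-selected RNA, in which an RNA without a tail is under-represented, and say nothing of the numbers of molecules in the cell.

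**Figure D1:**
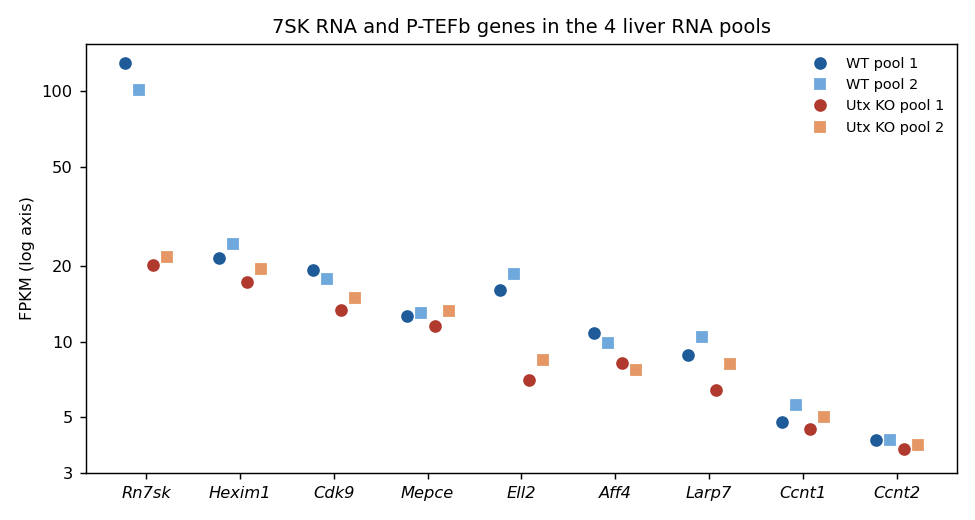
FPKM of the 9 genes (log axis, ordered by mean level) in each of the 4 pools; circles and squares are pools 1 and 2 of wild-type (blue) and Utx knockout (red and orange) livers. Rn7sk drops from 129 and 101 to 20.2 and 21.9 FPKM and Ell2 from 16.1 and 18.7 to 7.01 and 8.44, while Mepce and Ccnt1 overlap between groups.

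The subunits of P-TEFb itself moved little. Cdk9, the kinase, lies on chromosome 2 (32705784 to 32713076, minus strand) and was at 19.3 and 17.8 FPKM in wild-type and at 13.3 and 14.9 in knockout pools. Both knockout pools were below both wild-type pools, a mean 23.8% lower with a log2 fold change of -0.38 (SE 0.12).

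Cyclin T1 and cyclin T2 are the alternative partners that activate CDK9. Ccnt1 (chromosome 15, 98538689 to 98570923, minus strand) was at 4.78 and 5.58 FPKM in wild-type and at 4.50 and 5.01 in knockout pools, which overlapped. Ccnt2 (chromosome 1, 127774164 to 127808061, plus strand) was at 4.05 and 4.07 FPKM in wild-type and at 3.74 and 3.89 in knockout pools. On the scale of the deposited FPKM, the pools of each group were close to each other and the groups did not overlap. The log2 fold change of Ccnt2 was -0.08 (SE 0.11), against -0.11 (SE 0.13) for Ccnt1. Rescaled to the listed reads, that of Ccnt2 was -0.02 and that of Ccnt1 -0.05. Ccnt1 supplied 54.1% and 57.8% of the summed cyclin T level in wild-type and 54.6% and 56.3% in knockout pools, so the balance of the cyclins was alike in the 4 pools.

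Ell2 was the second member past the threshold of the fit over all genes. Its protein is an elongation factor of the super elongation complex whose level is controlled by rapid turnover, and its gene lies on chromosome 13 (75706757 to 75772364, plus strand). Ell2 was at 16.1 and 18.7 FPKM in wild-type and at 7.01 and 8.44 in knockout pools, from 1228 to 2883 reads per library. The groups were well apart, with the lower wild-type pool 1.91 times the higher knockout pool. The mean fell from 17.4 ± 1.79 to 7.72 ± 1.01 FPKM, 55.6% lower, with a log2 fold change of -1.12 (SE 0.14), which ran from -1.25 to -0.997 over 16 alternative settings.

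Aff4, the scaffold that joins P-TEFb to ELL proteins, lies on chromosome 11 (53350833 to 53421830, plus strand). It was at 10.8 and 9.84 FPKM in wild-type and at 8.22 and 7.69 in knockout pools, without overlap and with a log2 fold change of -0.36 (SE 0.11).

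The paralogs were set beside each member by share of the summed FPKM of the family. Such shares are RNA levels and do not measure protein or function. Ell, the founding ELL gene, was at 19.3 and 17.2 FPKM in wild-type and at 20.6 and 13.4 in knockout pools (limma adjusted p = 0.744), with the knockout pools on either side of the wild-type pools. Ell3 had at most 3 reads in any library. Ell2 therefore made up 45.5% and 51.8% of the summed ELL level in wild-type pools and 25.3% and 38.6% in knockout pools. Hexim2, the second HEXIM gene, averaged under 1 FPKM and was not tested. It was at 0.698 and 0.643 FPKM in wild-type and at 0.946 and 0.909 in knockout pools, so Hexim1 held 94.8% to 97.5% of the HEXIM level in every pool. Aff1, the other AF4-family scaffold of the liver, fell from 6.62 ± 0.133 to 4.003 ± 0.226 FPKM (limma adjusted p = 0.0498). That call was lost in 9 of 16 alternative settings, among them rescaling to the listed reads (limma adjusted p = 0.0725). Aff4 held 62.1% and 59.3% of the summed scaffold level in wild-type and 67.95% and 64.8% in knockout pools, with Aff3 at 9 reads or fewer in each library.

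**Figure D2:**
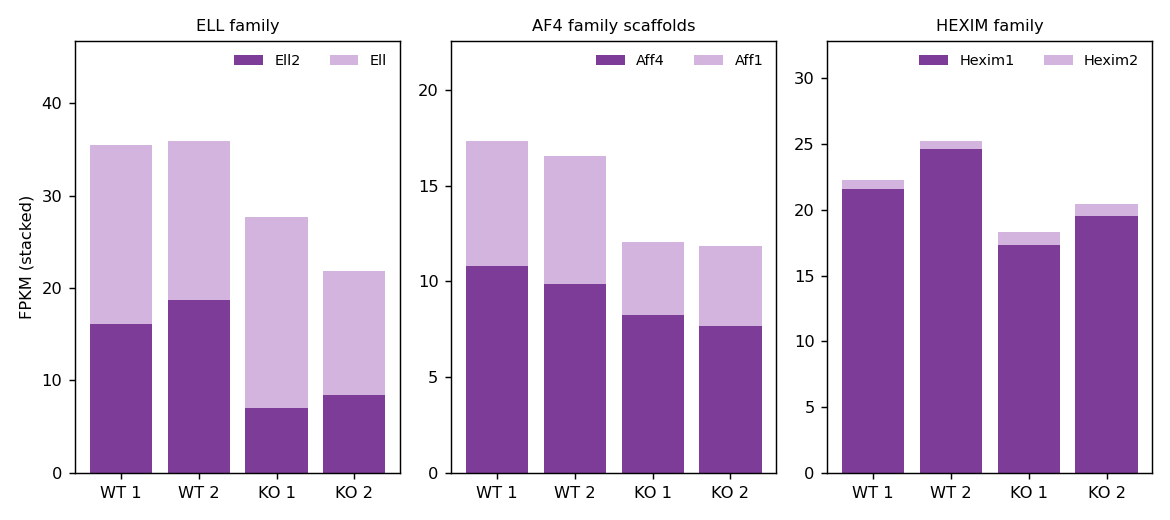
Stacked FPKM of paralogs in each pool (bars start at 0): Ell2 with Ell, Aff4 with Aff1, and Hexim1 with Hexim2; Ell3 and Aff3, which had 9 reads or fewer per library, are left out. Ell2 shrinks in both knockout pools while Ell does not shift in 1 direction, and Hexim1 makes up nearly the whole HEXIM bar in all 4 pools.

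Counted together, 2 of the 9 members, Rn7sk and Ell2, passed the limma threshold and both were lower, where 4.74% of all tested genes passed in either direction and 3.14% passed as lower. The groups did not overlap in 7 of the 9, all lower in the knockout, where 29.9% of tested genes lay apart as lower and 31.6% as higher. The median log2 fold change was -0.36 over the members and 0.01 over all tested genes. Since the members were brought together with this comparison known, nothing is read from these shares. Rn7sk passed in 12 of 15 alternatives, but not without wild-type pool 2, without knockout pool 1 or without a filter on low values. Ell2 passed in 9 of 16, and in none that left out 1 of the 4 libraries.

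7SK has no poly(A) tail, so other RNAs with no usual tail, or only a short one, were set beside it. Of 23 rows for 21 such RNAs, 12 were listed at 0 in all 4 libraries, among them Rmrp and Rpph1, the RNAs of the RNase MRP and RNase P enzymes, and 5 had a high enough mean to be tested. The mitochondrial ribosomal RNAs were lower in both knockout pools but short of the threshold. mt-Rnr1 was at 892 and 1224 FPKM in wild-type and at 429 and 582 in knockout pools with an adjusted p of 0.0868 in limma. mt-Rnr2 was at 976 and 945 against 422 and 599 FPKM (adjusted p = 0.0854). Rnu73b, with 5 to 16 reads per library, was at 8.33 and 14.3 against 6.32 and 4.11 FPKM (adjusted p = 0.137). Malat1 and the long form of Neat1 are nuclear RNAs that end in a triple helix in place of a tail. The value listed for Neat1 is that of the whole gene and not of the long form alone. Malat1 (109 and 102 against 90.5 and 102 FPKM) and Neat1 (81.7 and 86.8 against 78.7 and 68.8 FPKM) had log2 fold changes of -0.13 and -0.19 and did not pass. 7SK came to 6.90% and 4.64% of the summed level of the mitochondrial ribosomal RNAs in wild-type and to 2.37% and 1.85% in knockout pools.

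**Figure D3:**
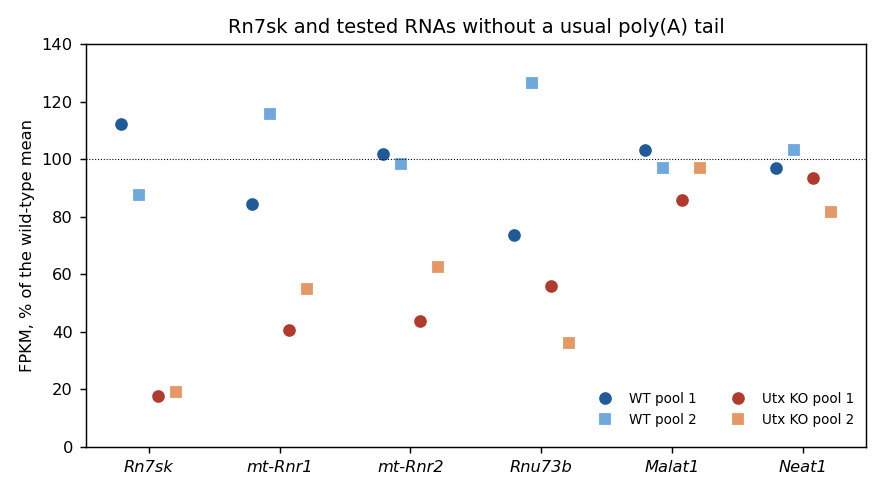
FPKM of Rn7sk and of the 5 tested RNAs of the untailed list in each pool, as a percentage of the mean of the 2 wild-type pools (dotted line at 100); circles and squares are pools 1 and 2, wild-type in blue and Utx knockout in red and orange. The knockout pools of Rn7sk lie lowest, at 20.2 and 21.9 FPKM, those of mt-Rnr1, mt-Rnr2 and Rnu73b lie between them and the line, and those of Malat1 and Neat1 lie nearest to the line.

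Among the 143 tested genes of small RNA classes, 102 had log2 fold changes below 0, with a median of -0.48. Over all 11900 tested genes, 5789 were below 0, with a median of 0.01. At the threshold 7 of the 143, Rn7sk included, were lower and 1 higher, where 3.14% of all tested genes were lower. In the annotation class of Rn7sk itself, miscellaneous RNA, 7 of 9 tested genes, Rn7sk included, were below 0, with a median of -1.15. Rn7sk was the 1 that passed. No other gene of the class was above 6.21 FPKM in any pool, a value that rested on 21 reads. Genes so near the filter can pass it through 1 group, so nothing is read from this median. Nor is anything read from the counts and the median of the small RNA classes. The part that carry-over of untailed RNA into each library has in the difference of Rn7sk was not tested. By length alone, the 761 tested genes of up to 500 bases had a median log2 fold change of -0.06, with 22 lower and 8 higher, against 0.02 for the 11139 longer genes. The 148 short genes with at least 50 reads on average had a median of 0.04, with 5 lower and 2 higher.

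The mouse genome holds many partial copies of 7SK, which could take or lend reads. A search of the GENCODE M21 transcripts found 202 other genes with a stretch like 7SK, 195 of them short RNAs of the same annotation class. Of these, 11 matched at 90% identity or more over at least 150 bases. Gm24447 was identical to 7SK over the first 241 bases, and it held 2 and 1 reads in wild-type and 1 and 0 in knockout pools. The 11 near copies had at most 6 reads in any library. The 195 short RNA copies together had 85 and 81 reads in wild-type and 69 and 68 in knockout pools, a much smaller gap between the groups than that of Rn7sk itself (722 and 524 against 119 and 124 reads). Rn7sk held 82.9% and 77.6% of all reads listed for miscellaneous RNAs in wild-type and 49.6% and 52.8% in knockout pools. The sources used here do not say how reads that match several places were counted. Rn7sk may therefore include reads of its copies or lack reads that match them, and the counts of the copies carry the same limit. No listed gene overlaps Rn7sk, and the nearest expressed genes, C920006O11Rik at 281 bases and Ick at 3196 bases, had log2 fold changes of 0.31 and 0.14. Among the other members, Larp7, Ccnt1 and Ell2 overlap genes on the opposite strand, none above 0.486 FPKM.

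The other genes of elongation control were taken from 6 lists of proteins by role, 96 symbols of which 90 were tested. At the threshold 4 were lower and 0 higher, with a median log2 fold change of -0.08. That is 4.44% lower, near the 3.14% of all tested genes.

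In the list of elongation complex partners and bromodomain proteins, 3 of 11 tested genes fell, 0 rose and 8 did not pass. Brd2, a bromodomain protein that reads acetylated histones, was at 135 and 177 FPKM in wild-type and at 36.9 and 47.3 in knockout pools (log2 fold change -1.87, SE 0.20, limma adjusted p = 0.0315). Its 2 groups were far apart. Eaf1, which binds and stimulates ELL proteins, fell from 79.6 ± 2.51 to 43.4 ± 1.65 FPKM (adjusted p = 0.0350), and Aff1 is given above. Brd3, a close relative of Brd2, was at 4.87 and 5.47 against 6.12 and 5.50 FPKM and did not pass. The difference between Brd2 and Brd3 was not tested.

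In the list of RNA polymerase II subunits and its initiation and Mediator kinases, 1 of 20 fell and 0 rose (median 0.04). That gene was Med13, a subunit of the Mediator kinase module, at 24.3 and 26.7 FPKM in wild-type and at 5.36 and 7.21 in knockout pools (log2 fold change -1.95, SE 0.17, adjusted p = 0.0258). Polr2a, the catalytic subunit of the polymerase, was at 22.4 and 27.4 against 12.2 and 14.4 FPKM and was just short of the threshold (adjusted p = 0.0540, and 0.0325 among protein-coding genes alone). Polr2i, another subunit, went the other way, at 14.9 and 14.3 against 20.6 and 23.7 FPKM. It was short of the threshold (limma adjusted p = 0.0676) but passed as higher among protein-coding genes alone. Leaving out wild-type pool 1, wild-type pool 2 or knockout pool 1 lost the calls of Brd2 (adjusted p of 0.0642, 0.0652 and 0.0882) and Med13 (0.0647, 0.0643 and 0.0600). Those of Eaf1 and Aff1 were lost without any 1 library, at 0.0819 to 0.142 and 0.110 to 0.186. Over all alternatives, the adjusted p ran up to 0.103 for Brd2 and Med13.

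No gene passed in the 4 other lists. Of 14 proteins that bind 7SK or free P-TEFb from it, 0 passed (median -0.21). The largest difference there was that of Hmga1, a chromatin protein that 7SK binds, at 157 and 108 against 46.5 and 57.1 FPKM (adjusted p = 0.0533), a gene singled out after its values were seen. Ppp1ca, a phosphatase subunit, was at 19.4 and 2.17 in wild-type and 1.75 and 8.50 FPKM in knockout pools. The pools of each group were far apart and the groups overlapped. Of 8 pausing factors, 0 passed (median -0.07): Nelfe, the RNA-binding subunit of NELF, was at 18.4 ± 1.08 and 16.01 ± 0.591 FPKM, and Supt5, the large subunit of DSIF, at 31.6 ± 2.64 and 24.8 ± 2.35. Of 16 factors that act after pause release, 0 passed (median -0.13), and Cdk12, a kinase of the elongating polymerase, was at 3.78 ± 0.360 and 3.48 ± 0.349 FPKM. Of 21 tested subunits and factors of RNA polymerase III, which transcribes Rn7sk, 0 passed (median 0.01). The subunit gene Polr3gl, at 4.33 and 5.34 against 7.73 and 7.63 FPKM, passed as higher among protein-coding genes alone. Snapc1, of the complex that recognises the promoters of 7SK and other small nuclear RNAs, was at 1.49 ± 0.121 and 1.37 ± 0.0174 FPKM.

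**Figure D4:**
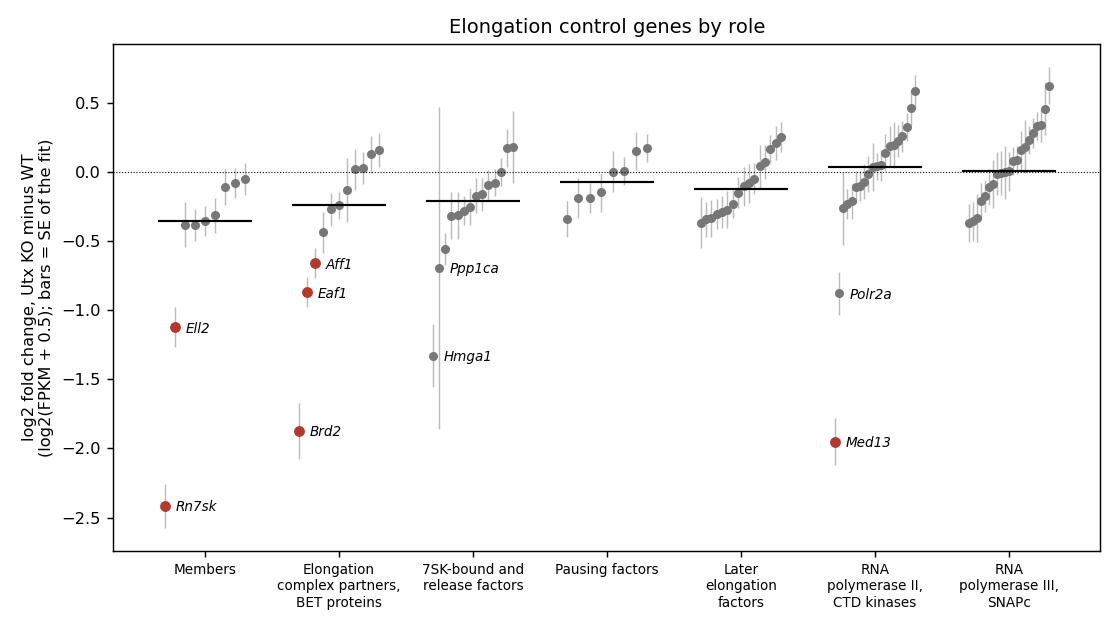
Log2 fold change (Utx knockout minus wild-type, log2(FPKM + 0.5)) of every tested gene by role, with bars for the SE of the fit, black lines for list medians and red points for genes with a limma adjusted p under 0.05. Rn7sk, Med13, Brd2 and Ell2 stand lowest among the red points, and the polymerase III list is centred at 0.01.

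Other cell types in the tissue were measured with the same libraries. Of the neutrophil markers, 4 of 10 tested passed as lower and 0 as higher, where 3.14% of all tested genes passed as lower. Their summed level was 123 and 188 FPKM in wild-type and 41.6 and 36.4 in knockout pools, so it was lower in the same pools as Rn7sk and Ell2. Most of it was S100a8, at 36.4 and 52.1 against 10.5 and 11.5 FPKM, and S100a9, at 55.6 and 82.6 against 17.8 and 16.1 FPKM. The summed level of the cholangiocyte markers was also lower in the knockout pools, at 266 and 104 against 42.9 and 20.9 FPKM. Of the 4 tested, 1 passed as lower and 0 as higher. Another 1 of the 4 went the other way, higher in both knockout pools than in both wild-type pools. Its log2 fold change of 0.52 did not pass. Most of that sum was Spp1, at 247 and 89.6 against 33.7 and 12.9 FPKM (limma adjusted p = 0.0858), and the marker that fell was Sox9, at 13.9 and 11.1 against 3.41 and 2.85 FPKM (adjusted p = 0.0258). The defining keratins Krt19 and Krt7 were at 0.701 FPKM or less in every pool. No neutrophil or cholangiocyte marker was listed at 0 in all 4 pools. The part of these cell types in the differences of Rn7sk, Ell2, Brd2, Eaf1, Aff1 and Med13 was not tested. In bulk tissue, fewer cells of a type and less RNA per cell cannot be told apart. Of the other lists, 1 of 11 Kupffer cell and macrophage, 0 of 9 sinusoidal endothelial and 0 of 7 stellate cell markers passed as lower and 0 as higher, and 0 lymphocyte markers reached the filter.

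The genes with the pattern nearest to a member were found by the distance between centred log2 values over the 4 pools, among 6080 genes with an established symbol and at least 5 FPKM. For Rn7sk they were Bco1, which cleaves beta-carotene (distance 0.266), Ackr2, a scavenging chemokine receptor (0.274), and Frat2 (0.365). Bco1 was at 34.9 and 28.1 FPKM in wild-type and at 6.49 and 6.86 in knockout pools. For Hexim1 they were Edem3 (0.0296), Zc3h15 (0.0390) and Aars (0.0429). With 4 libraries, such likeness describes these pools only.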

How the data were processed

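The authors deposited 1 table of FPKM with gene lengths and coordinates, 1 column per library. Per the submitters' processing notes, the aligner was HISAT2 2.0.5 and the build mm10, GRCm38.p6. Libraries were poly(A)-selected and primed with random hexamers, per the labels' protocols. The sources used here do not name the counting program, its use of strand or the annotation release. FPKM times gene length was a whole multiple of 1 step per library for 100% of values above 0 (within 0.01 read), which gave whole reads. The authors' FPKM totals were 1.02, 0.943, 1.001 and 1.05 times the listed reads. limma 3.58.1 in R 4.3.3 was run on log2(FPKM + 0.5) with a mean-variance trend, over the 11900 genes averaging 1 FPKM or more, two-sided with Benjamini-Hochberg adjustment and a threshold of 0.05 (2 residual and 2.59 prior degrees of freedom). It was checked on simulated data for the recovery and the sign of large known changes. That check set no limit on false calls.

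The members and lists were chosen with earlier results of these data known. The rules for naming genes besides the members covered up to 4 called genes per list with the smallest p and a preset set given whatever its p. They also covered the 3 nearest patterns of Rn7sk and Hexim1. Hmga1, Brd3, Ppp1ca, Polr2i, Polr3gl, Rnu73b, Ell3, Aff3, the single marker genes, and the neighbours and copies of Rn7sk were named outside these rules. Alternatives changed the pseudocount, filter, scaling, limma variant, gene class, replicate block and libraries. A crossed block and a minimum of 50 reads were added after seeing the data. Copies of 7SK were found with blastn (E-value 1e-10). Sample columns left out numbered 0. Some genes of the preset set and the marker lists are not reported here.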

Additional observations from a re-analysis of the deposited data

How the results depend on the processing

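The count of 564 genes became 901 with limma voom on recovered reads, 1014 among protein-coding genes alone, 867 with at least 50 reads, 280 without the trend and 0 without a filter (4388 at an unadjusted p under 0.05). It ran from 0 to 234 when 1 library was left out: 0 without wild-type pool 2 (2662 at an unadjusted p under 0.05), 5 without knockout pool 1, 30 without wild-type pool 1 and 234 without knockout pool 2, with a lone sample assumed to vary like the other group. The 2 called members became 1 without the trend, among protein-coding genes (where 7SK is not tested) and with the crossed block, 0 without a filter, and 0 to 1 with 1 library left out. The 4 called genes of the other lists became 2 without the trend, 8 among protein-coding genes, 0 without a filter and 0 to 2 with 1 library left out. With the replicate block, 310 genes, 2 members and 2 other list genes were called. Deviations of equally numbered pools correlated at -0.14 over the genes. With 2 pools per group, that value cannot show whether the numbers pair the pools. Crossing them gave 552 genes. The log2 fold changes of Rn7sk and Ell2 were below 0 in all 15 and 16 alternatives run. edgeR on recovered reads was not run. With 2 pools per group, small differences such as those of Hexim1 and Cdk9 are not resolved.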
